A study of Mus musculus with 24 samples.

Results

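Genes for the ligands and receptors that steer growing axons were followed in the brain of 2N mice, the controls with normal chromosomes, and of Ts1Cje mice, a model of Down syndrome. They were the ephrins and Eph receptors, the semaphorins of classes 3 to 7 with neuropilins and plexins, the Slits with Robo receptors, and netrins 1 to 4 with Dcc and the Unc5 receptors. A probe set, the group of short probes that reports on a transcript on these Affymetrix arrays, was a member when the platform annotation gave it a single gene symbol of these families. The rule found 57 of 12422 probe sets on array design MGU74A (array A), for 44 of 8251 genes, and 38 of 12411 on MGU74B (array B), for 28 of 7542 genes. These 95 probe sets named 61 genes. They were 60 of the 68 protein-coding genes of the families in the reference annotation (GRCm38.p6) and Plxna4os1, an antisense RNA of the plexin gene Plxna4. Neither the levels in 2N brain nor the difference between the genotypes entered the rule. The members were, however, chosen with earlier results of these data known.

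Each genotype had 6 samples of total RNA on each array. Ts1Cje mice carry an extra copy of the part of chromosome 16 distal to Sod1, translocated onto chromosome 12, and Sod1 is disrupted on the extra copy. The labels give the tissue as brain and state no region, age, sex or strain background. Whether each sample was a different animal is not stated either, and the p-values therefore rest on a spread between samples that may be partly technical. In whole tissue, fewer cells of a type and less RNA per cell cannot be told apart.

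Axon guidance works through contact and gradients. Ephrins sit on the membrane of one cell and bind Eph receptor tyrosine kinases on another, often repelling the growth cone that carries the receptor. Secreted class 3 semaphorins bind neuropilins, which signal together with plexins, while most membrane semaphorins bind plexins directly. Slits from the midline repel axons through Robo receptors, and netrins attract through Dcc or repel through Unc5 receptors. These systems are used while the tracts of the brain and spinal cord are laid down, and many members stay in use at synapses and in blood vessels.

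None of the members passed the test for a difference between the genotypes, and most of the brightly measured ones were bounded within a modest fold. The threshold was a limma p under 0.05 after Benjamini-Hochberg adjustment over all tested probe sets of the array. On array A 0 of 48 tested member probe sets passed, where 0.0966% of all tested probe sets did, and for array B it was 0 of 34, where 0.0645% did. The smallest adjusted p of a member was 0.991 on array A and 0.996 for array B. Without adjustment, 2 members of array A had a limma p under 0.05 (3.61% of all tested probe sets), of which 1 was higher in Ts1Cje (1.9% of all) and 1 lower (1.71%). Array B had 1 such member (4.23% of all), which was higher (2.13%), and 0 lower (2.11%). The 6 Ts1Cje values lay clear of the 6 2N values for 0 members, while 0.301% (array A) and 0.236% (array B) of all tested probe sets showed such a separation.

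The members were divided evenly in direction. Above 0, meaning higher in Ts1Cje, were 23 of 48 on array A, beside 48.9% of all tested probe sets, and 18 of 34 on array B, beside 49.3%. Their median log2 difference (Ts1Cje minus 2N) was -0.022 (array A) and 0.0029 (array B), beside -0.0042 and -0.0035 for all tested probe sets. An estimate past 1.5-fold in either direction was found for 4 of 48 on array A, beside 6.85% of all, and for 0 of 34 on array B, beside 8.12%.

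How tightly a difference was bounded followed the signal. The 95% interval lay within 1.5-fold in either direction for 28 of 48 member probe sets of array A, beside 55.2% of all tested ones, and for 26 of 34 of array B, beside 46.9%. The members were bright for their arrays, with 35 of 57 (array A) and 29 of 38 (array B) in the upper 50% of signal. Their median SE was 0.147 on array B, beside 0.213 for all tested probe sets. On array A it was 0.19, beside 0.184, and so no smaller. These shares, and those of estimates past 1.5-fold, therefore do not compare probe sets of like signal. Among members above the 75th percentile of signal it did so for 16 of 17 (array A) and 22 of 22 (array B). Among members at or below the 50th percentile it did so for 0 of 13 and 0 of 5. The coefficient of variation over the 2N samples had a median of 15.3% in the brighter members of array A and 40.7% in the dimmer ones. Probe sets bind their targets with different strength, so their signals do not rank the genes by RNA amount.

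The samples showed a division that the labels do not name. On the first principal component of each array, which held 14.6% of the variance (array A) and 12.8% (array B), the samples numbered 1 and 2 in either genotype were separated from those numbered 3 to 6. The within-division values stand beside the differences that came nearest to the threshold.

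**Figure D1:**
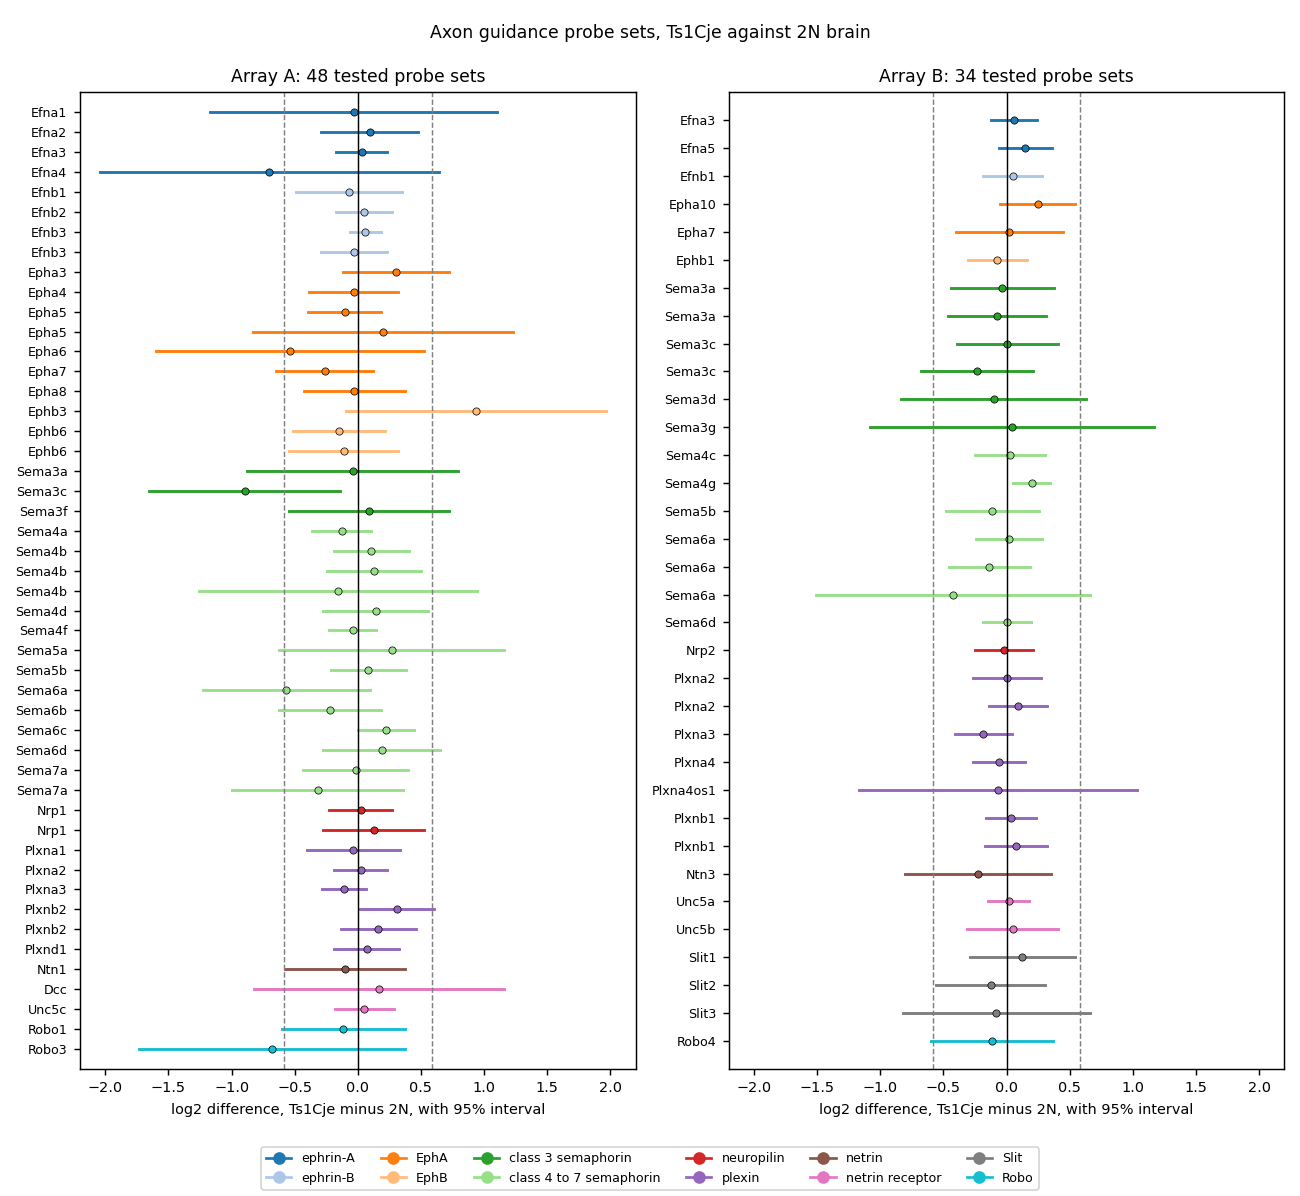
Log2 difference between Ts1Cje and 2N brain (horizontal axis) with its 95% interval from the limma fit for the 48 tested member probe sets of array A and the 34 of array B, coloured by family; dashed lines mark 1.5-fold either way. The widest intervals belong to dim probe sets such as those of Efna4 and Efna1, and the narrowest to the bright ones of Efnb3 and Sema4g.

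Ephrins had 11 tested probe sets, of which 7 lay above 0, 4 below and 0 passed. Efnb3 encodes a membrane-spanning ephrin that keeps corticospinal axons from recrossing the midline. Its brighter probe set was at 329.5, 340.2 and 356 in the lowest, median and highest 2N sample, and at 331, 351 and 384 in Ts1Cje. The groups overlapped, and the log2 difference was 0.060 (SE 0.060, 95% interval -0.066 to 0.19), the narrowest interval of the ephrins. Its other probe set differed by -0.028 (SE 0.12). Efnb2, an ephrin of arteries and of neurons, was at 142 ± 16.8 (SD, n = 6) in 2N and 147 ± 18.9 in Ts1Cje, a difference of 0.048 (SE 0.10). Efnb1, the X-linked ephrin-B, differed by -0.067 (SE 0.20) on array A and by 0.047 (SE 0.11) on array B.

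Of the lipid-anchored ephrin-A genes, Efna3 was at 199 ± 24.4 (SD, n = 6) in 2N on array A and 202 ± 21.1 in Ts1Cje, a difference of 0.030 (SE 0.097). On array B Efna3 differed by 0.059 (SE 0.087). Efna5, a repellent of retinal axons in the midbrain, was steady within 2N on array B, at 31.9, 32.5 and 34.8 in the lowest, median and highest sample, with 33.4, 36.7 and 39.9 in Ts1Cje. Here 4 of 6 Ts1Cje samples were above all 2N samples, and the log2 difference was 0.15 (SE 0.099, limma adjusted p = 0.996), with 0.13 and 0.15 in the 2 divisions. The array A probe set of Efna5 was at the floor in 8 of 12 samples and was not tested. Efna2 differed by 0.094 (SE 0.18). The dim Efna1 and Efna4 probe sets, named after their values were seen, differed by -0.032 (SE 0.54) and -0.70 (SE 0.64).

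Eph receptors, the kinases that read ephrins, had 13 tested probe sets, of which 5 lay above 0, 8 below and 0 passed. Ephb1, which steers retinal axons to the same side of the brain, was at 131 ± 17.1 (SD, n = 6) in 2N and 125 ± 19.9 in Ts1Cje, a difference of -0.073 (SE 0.11). Ephb6, a member with an inactive kinase, differed by -0.15 (SE 0.17) and -0.11 (SE 0.20) on its 2 probe sets. Epha5 was at 56.3 ± 9.45 and 52.3 ± 8.30, a difference of -0.11 (SE 0.14), and its dim probe set differed by 0.20 (SE 0.49). Epha8 differed by -0.028 (SE 0.19) and Epha4, a receptor of corticospinal axons, by -0.033 (SE 0.17). Epha7 differed by -0.26 (SE 0.18) on array A and by 0.022 (SE 0.20) on array B. Epha10, another receptor without kinase activity, was at 21.4, 24.1 and 35.5 in the lowest, median and highest 2N sample and at 24.9, 30.8 and 35.2 in Ts1Cje. All 6 Ts1Cje samples lay above the 2N median, while the groups overlapped. The difference was 0.25 (SE 0.14, limma adjusted p = 0.996), with 0.39 and 0.17 in the divisions.

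Ephb3, a receptor used by callosal axons, had the highest log2 difference among the members, from a dim and scattered probe set. Its lowest, median and highest 2N samples were at 2.55, 9.26 and 17.1 and its Ts1Cje samples at 7.12, 13.7 and 28.7. The groups overlapped over most of the 2N range, and the log2 difference was 0.93 (SE 0.49, 95% interval -0.095 to 1.96, limma adjusted p = 0.991). It was 2.34 among replicates 1 and 2 and 0.23 among replicates 3 to 6.

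**Figure D2:**
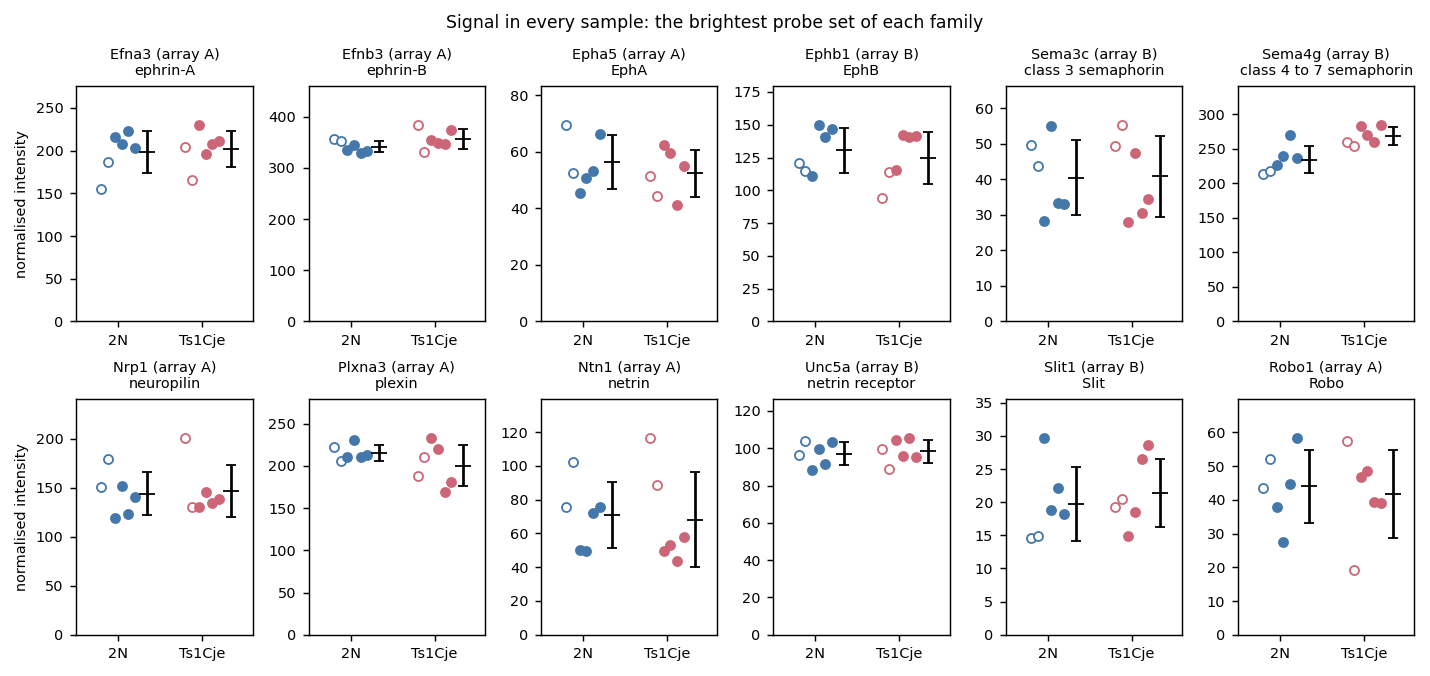
Normalised intensity (vertical axis, from 0) in every sample for the probe set with the highest mean log2 signal in each of the 12 families; open circles are replicates 1 and 2, filled circles replicates 3 to 6, and the black bar is the mean ± SD of the 6 samples. The genotypes overlap in every panel; for Sema4g the highest 2N sample is at 269.9 and the lowest Ts1Cje sample at 255.

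Membrane semaphorins of classes 4 to 7 had 21 tested probe sets, of which 11 lay above 0, 10 below and 0 passed. Sema4g, a transmembrane class 4 semaphorin, had the smallest unadjusted p of any member. Its array B probe set was at 214, 232 and 269.9 in the lowest, median and highest 2N sample and at 255, 265 and 284 in Ts1Cje. All 6 Ts1Cje samples lay above the 2N median and 2 above every 2N sample. The log2 difference was 0.20 (SE 0.070, 95% interval 0.051 to 0.35), or 1.15-fold, with a limma unadjusted p of 0.0112 and an adjusted p of 0.996. It was 0.25 among replicates 1 and 2 and 0.17 among replicates 3 to 6.

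Sema6c, a transmembrane class 6 semaphorin, was at 107, 119 and 164 in the lowest, median and highest 2N sample and at 127, 143 and 165 in Ts1Cje. All 6 Ts1Cje samples were above the 2N median, and a single 2N sample reached into their range. The log2 difference was 0.22 (SE 0.11, limma adjusted p = 0.991), with 0.35 among replicates 1 and 2 and 0.16 among the others. Sema4a, which also acts in immune cells, was at 121 ± 22.1 (SD, n = 6) in 2N and 109 ± 8.04 in Ts1Cje, a difference of -0.13 (SE 0.11). Sema4f differed by -0.041 (SE 0.088), Sema4c by 0.025 (SE 0.13), Sema6b by -0.22 (SE 0.19) and Sema4d, a ligand of plexin-B1, by 0.14 (SE 0.20). These last 4 were named after their values were seen. Sema6d and the lipid-anchored Sema7a had 2 probe sets each, at 0.19 and 0.0044, and at -0.32 and -0.017.

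Sema6a, which acts on migrating cerebellar granule cells, had 4 tested probe sets that spread widely. On array A it was at 23.3, 39.4 and 44.2 in 2N (lowest, median, highest) and at 8.14, 28.7 and 47.1 in Ts1Cje, a difference of -0.57 (SE 0.31, limma adjusted p = 0.991) with broad overlap. The value was -1.07 among replicates 1 and 2 and -0.31 among replicates 3 to 6. The 3 tested probe sets of array B differed by 0.016 (SE 0.12), -0.14 (SE 0.15) and -0.42 (SE 0.52), from the brightest to the dimmest. For the brightest, at 85.6 ± 12.4 in 2N (SD, n = 6), the 95% interval ran from -0.24 to 0.28.

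Class 3 semaphorins, the secreted ligands of neuropilins, were mostly dim, with 9 of 13 probe sets tested, 3 above 0, 6 below and 0 passing. Sema3c, which acts on cortical and callosal axons, had the lowest log2 difference of any member. On array A its 2N samples were at 6.48, 9.14 and 15.8 (lowest, median, highest) and its Ts1Cje samples at 3.43, 4.64 and 9.48. In Ts1Cje 5 of 6 samples lay below every 2N sample, and the difference was -0.90 (SE 0.36, 95% interval -1.65 to -0.14, limma unadjusted p = 0.0224, adjusted p = 0.991). It was -1.35 among replicates 1 and 2 and -0.67 among replicates 3 to 6. The 2 probe sets of Sema3c on array B gave smaller differences. There the brighter one was at 40.5 ± 10.6 (SD, n = 6) in 2N and 40.8 ± 11.3 in Ts1Cje, a difference of 0.0057 (SE 0.19), and the dimmer one differed by -0.23 (SE 0.21).

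Sema3a, the classic collapsing factor for sensory growth cones, had 3 tested probe sets, at -0.034 (SE 0.19), -0.079 (SE 0.19) and -0.042 (SE 0.40). Sema3f, a ligand of neuropilin 2, differed by 0.091 (SE 0.30). The 4 class 3 probe sets too dim to be tested were that of Sema3e, both of Sema3b and the dimmer of Sema3d.

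The receptors of semaphorins, neuropilins and plexins, had 16 tested probe sets, of which 10 lay above 0, 6 below and 0 passed. These counts include the antisense RNA Plxna4os1, which is no receptor and lay below 0. Nrp1, which binds Sema3a and is also a co-receptor for vascular endothelial growth factor, was at 144 ± 22.0 (SD, n = 6) in 2N and 146 ± 26.9 in Ts1Cje, a difference of 0.022 (SE 0.12). Its dimmer probe set differed by 0.13 (SE 0.19). Nrp2 was at 50.5 ± 2.12 and 50.3 ± 8.51, a difference of -0.020 (SE 0.11), and the Ts1Cje samples held both its lowest and its highest value.

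Plxnb2, a plexin-B receptor of class 4 semaphorins used in cerebellar progenitors, was the other member of array A with an unadjusted p under 0.05. Its samples were at 53.3, 74.8 and 91.3 in 2N (lowest, median, highest) and at 72.5, 91.0 and 107 in Ts1Cje, with 3 of 6 Ts1Cje samples above every 2N sample. The log2 difference was 0.31 (SE 0.14, 95% interval 0.016 to 0.60, limma unadjusted p = 0.0399, adjusted p = 0.991). It was 0.11 among replicates 1 and 2 and 0.41 among replicates 3 to 6. The other Plxnb2 probe set differed by 0.16 (SE 0.14).

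Plxna3, an X-linked partner of neuropilins, lay below 0 on both arrays. On array A it was at 206, 212 and 230.5 in 2N and at 169.6, 199 and 233 in Ts1Cje (lowest, median, highest), a difference of -0.11 (SE 0.083). On array B it was at 145, 169.6 and 199.7 in 2N and at 117, 149 and 200.4 in Ts1Cje, a difference of -0.18 (SE 0.11, limma adjusted p = 0.996). Within the divisions the values were -0.11 and -0.12 on array A and -0.18 and -0.19 on array B. The labels do not state whether a replicate number stands for the same RNA on both arrays, so array B need not be an independent measurement. Plxna2 was at 0.022, 0.091 and 0.0013 on 3 probe sets, and Plxnb1 at 0.034 and 0.074 on 2. Of the remaining plexins, named after their values were seen, Plxna1 differed by -0.035 (SE 0.18), Plxna4 by -0.062 (SE 0.099) and the endothelial Plxnd1 by 0.071 (SE 0.12). The antisense RNA Plxna4os1 was dim and differed by -0.067 (SE 0.52).

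Netrins and their receptors had 6 tested probe sets, of which 4 lay above 0, 2 below and 0 passed. Ntn1, the floor plate attractant, was at 49.4, 73.7 and 102 in 2N and at 43.8, 55.5 and 116 in Ts1Cje (lowest, median, highest). Its groups overlapped, with the highest 2N value in replicate 2 and the highest Ts1Cje value in replicate 1, and the log2 difference was -0.10 (SE 0.23). Ntn3 differed by -0.23 (SE 0.27). The repulsive netrin receptor Unc5a was among the steadiest members, at 97.1 ± 6.33 (SD, n = 6) in 2N and 98.3 ± 6.13 in Ts1Cje, a difference of 0.017 (SE 0.078, 95% interval -0.15 to 0.18). Unc5c differed by 0.053 (SE 0.11) and Unc5b by 0.047 (SE 0.17). Dcc, named after its values were seen, was dim, at 9.28 ± 2.90 in 2N and 12.6 ± 8.94 in Ts1Cje, and its interval ran from -0.82 to 1.16.

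Slits and Robo receptors gave dim to moderate signals, with 6 tested probe sets, 1 above 0, 5 below and 0 passing. Slit1 was at 19.7 ± 5.60 (SD, n = 6) in 2N and 21.4 ± 5.19 in Ts1Cje, a difference of 0.12 (SE 0.20). Slit2 and Slit3 differed by -0.13 (SE 0.20) and -0.080 (SE 0.35). Robo1, a Slit receptor of callosal and other forebrain axons, was at 44.0 ± 10.8 and 41.7 ± 13.0, a difference of -0.11 (SE 0.23). Robo3, needed for midline crossing in the hindbrain, differed by -0.68 (SE 0.50) and the endothelial Robo4 by -0.12 (SE 0.23). The intervals of all 3 Robo genes reached past 1.5-fold downward.

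The extra chromosome segment of Ts1Cje holds no member. By gene order in the reference annotation 5 of the 61 member genes lie on chromosome 16, all on the centromeric side of Sod1, with 0 distal to it and 0 on chromosome 12. The 5 are Epha3, Epha6, Ephb3, Robo1 and Sema5b. Epha3, a receptor of ephrin-A5, was at 12.7, 13.7 and 15.4 in 2N (lowest, median, highest) and at 11.4, 18.3 and 21.7 in Ts1Cje. In Ts1Cje 5 of 6 samples lay above and 1 below all 2N samples, and the log2 difference was 0.30 (SE 0.20, limma adjusted p = 0.991), with 0.46 and 0.22 in the divisions. Epha6 differed by -0.54 (SE 0.50), and Sema5b by 0.084 (SE 0.14) on array A and -0.11 (SE 0.18) on array B. With Ephb3 at 0.93 and Robo1 at -0.11, estimates for these genes lay on both sides of 0.

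**Figure D3:**
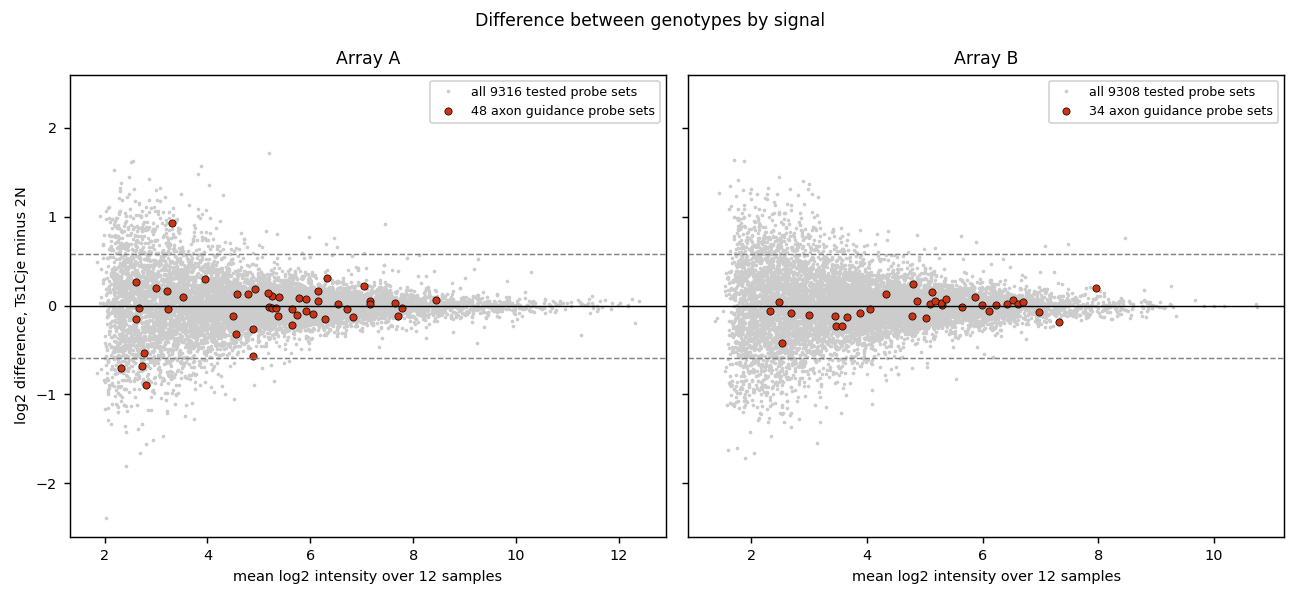
Log2 difference between Ts1Cje and 2N (vertical axis) against mean log2 intensity over the 12 samples of an array (horizontal axis) for all tested probe sets (grey) and the members (red); dashed lines mark 1.5-fold either way. The 4 members past 1.5-fold on array A (Ephb3, Sema3c, Efna4 and Robo3) lie at the dim end, and 0 members pass it on array B.

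Some genes had more than 1 member probe set, and their estimates can be set side by side. Of 25 such genes 18 had more than 1 tested probe set. For 10 of them all tested probe sets lay on the same side of 0, among them Plxna3, Plxnb2, Sema3a, Ephb6 and Efna3, and for 8 they lay on both sides. The share over all genes with several probe sets was not counted, so 10 of 18 cannot be read as agreement particular to these genes. The probe sets farthest apart were those of Sema3c, between -0.90 and 0.0057, and of Sema6a, between -0.57 and 0.016. The difference between probe sets of a gene was not tested.

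**Figure D4:**
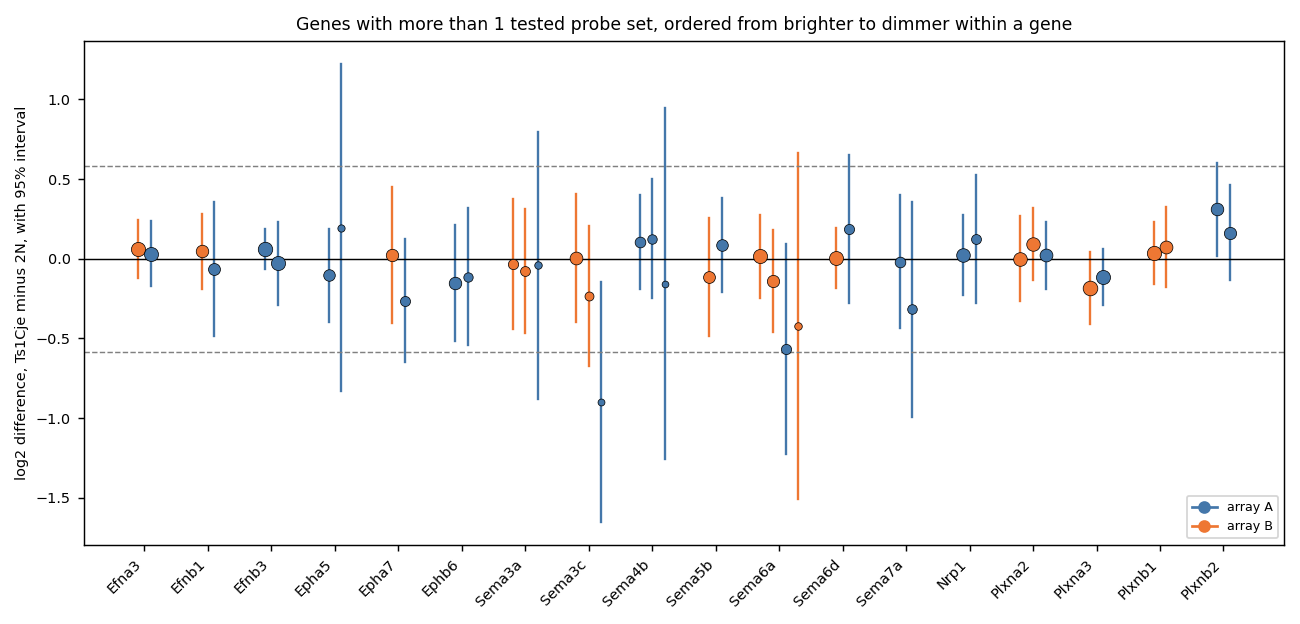
Log2 difference with its 95% interval for each tested probe set of the 18 genes with more than 1, ordered within a gene from the brighter to the dimmer; blue is array A, orange array B, and a larger point marks a brighter probe set. Brightness is the percentile of signal within the array. The Sema3c probe sets run from 0.0057 for the brightest to -0.90 for the dimmest, while the Plxna2 probe sets stay between 0.0013 and 0.091.

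Genes that carry guidance signals inside the growth cone or act beside the receptors were counted from a list of 85. On array A 1 of 72 tested probe sets passed and on array B 1 of 61, both higher in Ts1Cje, beside 0.0966% and 0.0645% of all tested probe sets. Both belong to genes of the trisomic segment. The list, with both genes in it, was chosen with earlier results of these data known. The counts are therefore no test of the partners as a group. Dscam, an adhesion gene whose product can act as a netrin receptor, was at 31.1, 38.6 and 43.2 in 2N and at 52.3, 65.6 and 77.1 in Ts1Cje (lowest, median, highest) on array B. The groups did not overlap, and the log2 difference was 0.78 (SE 0.13, limma adjusted p = 0.0164). Itsn1, an endocytic scaffold that activates the GTPase Cdc42, was at 87.0, 109 and 123 in 2N samples of array A and at 143, 156 and 200.4 in Ts1Cje, a difference of 0.59 (SE 0.10, limma adjusted p = 0.0203). Its 3 tested probe sets on array B lay at 0.33, 0.49 and 0.39 and did not pass. The median log2 difference over the list, 1 probe set a gene, was -0.012 (array A) and -0.014 (array B). The count on array A fell to 0 without 2N replicate 1, 3, 5 or 6 or Ts1Cje replicate 1 or 5, and that on array B fell to 0 without 2N replicate 5 or Ts1Cje replicate 1, 2 or 4.

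The brightest partners on array A were the actin-severing cofilin gene Cfl1 at -0.038 (SE 0.061), the semaphorin mediator Crmp1 at 0.017 (SE 0.052), the adhesion gene Ncam1 at 0.028 (SE 0.052) and the GTPase gene Rac1 at -0.033 (SE 0.079). On array B they were the Crmp family genes Dpysl5 at -0.020 (SE 0.062) and Dpysl2 at -0.029 (SE 0.069), the neuropilin-binding adhesion gene L1cam at -0.14 (SE 0.078) and Cdk5r1, an activator of the kinase Cdk5, at -0.046 (SE 0.081). None of these 8 passed, and each 95% interval lay within 1.5-fold.

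The brain label was checked with marker genes. Neuronal markers of array A summed to 4643 to 5453 in 2N and 5054 to 5885 in Ts1Cje, with 8 of 8 genes tested. They lay above 0 in 7 of 8 (median 0.049), and on array B in 1 of 4 (median -0.048). On array A, glutamatergic neuron markers lay above 0 in 2 of 5 (median -0.047) and GABAergic ones in 2 of 7 (median -0.043). Astrocyte markers of array A lay above 0 in 5 of 7 (median 0.012) and neural progenitor markers in 4 of 7 (median 0.015). The mature oligodendrocyte markers Mog, Mobp, Cnp and Ugt8a did not reach the filter on array A, while Mbp, Pdgfra and Sox10 did. Oligodendrocyte markers lay above 0 in 0 of 3 there (median -0.057), with sums of 161.9 to 217.1 in 2N and 170.3 to 214.2 in Ts1Cje. On array B 1 of 2 lay above 0 (-0.38 and 0.46), with sums of 53.3 to 86.1 in 2N and 78.8 to 94.9 in Ts1Cje. Markers of endothelium, the cells known for Robo4 and Plxnd1, summed to 335 to 419 in 2N and 330.1 to 417 in Ts1Cje on array A. On array B, which holds Robo4, 1 of 3 tested endothelial genes lay above 0 (median -0.0084, lowest -1.075). Their sums were 31.4 to 37.6 in 2N and 20.7 to 40.8 in Ts1Cje. Of the marker lists, 0 probe sets passed in either direction. Among cells that a brain sample could also hold, pituitary markers lay above 0 in 5 of 5 tested genes of array A (median 0.34), with sums of 58.2 to 121 in 2N and 92.8 to 123 in Ts1Cje. Skeletal muscle markers lay above 0 in 3 of 4 (median 0.60), with sums of 33.3 to 53.7 and 47.8 to 62.8. Microglial markers lay above 0 in 1 of 5 (median -0.19), with sums of 238 to 297 in 2N and 205 to 302 in Ts1Cje. Blood markers lay above 0 in 0 of 3 (median -0.17), with sums of 927 to 1502 and 1010 to 1176. Meningeal and fibroblast markers of array A lay above 0 in 1 of 6 (median -0.085), with sums of 1016 to 1291 and 938.2 to 1391. Choroid plexus markers there lay above 0 in 2 of 3 (median 0.058), with sums of 883 to 1244 and 792.2 to 1041. The sums of the genotypes overlapped for each of these lists, and their part in the members' values was not tested. Over the tested members, the median deviation of a sample from the mean of all 12 lay between -0.076 and 0.13 (array A) and between -0.068 and 0.073 (array B), and the genotypes overlapped.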

How the data were processed

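Total RNA from brain was measured on 2 array designs, 6 samples per genotype on each. The deposited values were intensities on a linear scale, 1 per probe set and array, and the authors' summarisation and scaling are not given in the sources used here. After 66 control probe sets were left out of each table, the highest trimmed mean of an array was 2.10-fold the lowest (array A) and 1.86-fold (array B), past a tolerance of 5%, so each table was quantile normalised. Values under the 10th percentile (1.47 and 1.13) were set to it and log2 was taken, which shrinks differences of dim probe sets. The brighter probe sets, with a mean intensity from the 25th percentile up, were tested (9316 and 9308) with limma 3.58.1 in R 4.3.3, with a mean-variance trend and no covariate, and p-values were adjusted by Benjamini-Hochberg within a table. The number of arrays limits the precision. The tables were tested apart.

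Symbols came from the platform annotation, and the symbols of all 95 member probe sets matched the reference annotation. Members, lists and rules were chosen with earlier results of these data known. Named were the up to 3 members of each family with the highest mean log2 signal, the 5 of each array that had the smallest p, genes with several probe sets, members on chromosome 16, and partners that passed or were the 4 brightest of an array. Alternatives changed the normalisation, floor, filter, trend, array weights and replicate terms, and left out each sample.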

Additional observations from a re-analysis of the deposited data

Results flagged for a closer look

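The check for outlying samples covered 44 named member probe sets, as 88 groups of 6 samples. Of these groups, 7 held a sample far from the other 5 (Dixon's test on the log2 scale), where chance gives about 1 in 20. Sema3a was at 11.78 in Ts1Cje replicate 6 on array B, with the next sample at 16.9. On array A, Sema6c was at 164.3 in 2N replicate 6, above the next at 124.6, and Efna2 at 30.28 in 2N replicate 4, below the next at 41.63. Efnb1 was at 100.1 in 2N replicate 2, above the next at 64.73. Ts1Cje replicate 1 was low for Efnb2 at 111.5 (next 143.2) and high for Nrp1 at 200.3 (next 145.1). Robo1 was at 19.21 in Ts1Cje replicate 2, with the next sample at 38.97. Other member probe sets quoted in the results were not checked, so these 7 are not a full list. Among the unchecked, the dimmest tested Sema6a probe set of array B was at 1.9 in 2N replicate 6, with the next at 7.804. A Plxna2 probe set of array B was at 78.09 in Ts1Cje replicate 6, with the next at 60.12.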

How the results depend on the processing

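No member passed under any of the 24 alternatives on either array (limma). The lowest adjusted p of a named member was 0.827, for Sema4g with replicates 1 and 2 against 3 to 6 as a term, and with a sample left out it was 0.833 (Sema4g without 2N replicate 5). Of 1049 values of 44 named member probe sets, 973 kept their direction and 76 changed sign, 49 of these with a sample left out. With the replicate number as a block, 0 members passed and 9 (array A) and 6 (array B) of all probe sets did, as without it, and the smallest member adjusted p was 0.900 and 0.856. After the mean of each genotype was taken out, same-numbered samples had correlations of 0.018 to 0.074 for array A and 0.014 to 0.11 for array B. The labels do not say what a replicate number means, so these samples were not treated as pairs in the main fit. Of the 6 2N samples, 3 (array A) and 2 (array B) correlated best with their own number, and the numbers 1 and 2 stood apart from 3 to 6 in both genotypes.

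The count of signalling partners past the threshold was 0 for both arrays without normalisation, without the trend and with replicates 3 to 6 only, and 0 for array B without a filter. With a sample left out it was 0 to 1 for each. The members' median for array B was 0.049 without normalisation and -0.039 to 0.00072 with a sample left out. Without normalisation the median of all tested probe sets was -0.055 (array A) and 0.054 (array B). The log2 differences that changed sign were these. Outside the comparison of probe sets, each belongs to the gene's probe set with the highest mean log2 signal. For Sema3c that is the array B probe set at 0.0057, while its array A probe set at -0.90 never changed sign. Without normalisation, Efna3 was at -0.036, Efnb2 at -0.017, Efnb3 at -0.0062, Nrp1 at -0.046, Plxna2 at -0.035, Sema3a at 0.030, Nrp2 at 0.040 and Slit3 at 0.0094. With median scaling, Efna3 was at -0.012, Nrp1 at -0.021 and Plxna2 at -0.010. With array weights, Epha8 was at 0.078, Robo1 at 0.015 and Sema3c at -0.047. With replicates 3 to 6 only, Sema3f was at -0.070, Sema5b at -0.067, Epha4 at 0.035, Epha5 at 0.013, Epha8 at 0.12, Efna2 at -0.071, Efna3 at -0.0095, Robo1 at 0.088, Sema3a at 0.12, Sema3c at -0.075, Unc5b at -0.036, Nrp2 at 0.024 and Slit1 at -0.026. The comparison of probe sets set the others against the one with the highest percentile of signal within its array. For Efnb1 and Sema5b that one was on array B, at 0.047 and -0.11, so their listed values are those of array A. With another probe set of the gene, Efnb1 was at -0.067, Efnb3 at -0.028, Epha5 at 0.20, Epha7 at -0.26, Sema3c at -0.23 and -0.90, Sema4b at -0.16, Sema5b at 0.084 and Sema6a at -0.14, -0.57 and -0.42. With a sample left out, Efna3 ran from -0.038 to 0.086, Sema5b from -0.0051 to 0.17, Epha4 from -0.17 to 0.071, Epha8 from -0.14 to 0.10, Efnb1 from -0.18 to 0.072, Ntn1 from -0.27 to 0.015, Sema3f from -0.045 to 0.25, Nrp1 from -0.071 to 0.088, Plxna2 from -0.021 to 0.071, Unc5c from -0.0066 to 0.11, Efna2 from -0.034 to 0.23, Robo1 from -0.24 to 0.095, Sema3a from -0.17 to 0.063, Unc5b from -0.033 to 0.17, Sema3c from -0.092 to 0.11, Unc5a from -0.0094 to 0.045, Slit3 from -0.29 to 0.061, Robo4 from -0.21 to 0.014, Ephb1 from -0.12 to 0.0037, Nrp2 from -0.099 to 0.029 and Plxnb1 from -0.028 to 0.070. The causes were not tested. Dim probe sets limit the rest: no interval of a member at or below the 50th percentile of signal lay within 1.5-fold.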
